A study of Homo sapiens with 24 samples.

Results

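The genes described here drive the step from G1 into S phase of the cell cycle and copy the DNA. They were taken from a list of 37 named genes, and all 37 were measured among the 18274 genes with a value, each by the probe set with the highest mean over the 24 arrays. Before S phase, ORC1, CDC6 and CDT1 load the ring of MCM2 to MCM7 onto DNA, a step called licensing. CDC45 and the GINS proteins then turn that ring into the active helicase, and polymerases, the sliding clamp PCNA and its loader RFC build the new strands. Transcription of many of these genes is raised by E2F factors when cyclin E and its kinase release them from the retinoblastoma protein, so in growing cells they are often expressed together.

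The cells were Huh7.5.1, an established human hepatoma line. They received silymarin, a flavonolignan mixture from milk thistle, or DMSO, and every sample title carries the word novirus. The groups were DMSO and silymarin at 4 h (4 and 4 arrays), at 8 h (5 and 3 arrays) and at 24 h (5 and 3 arrays). The labels give no silymarin dose, and nothing in them says that the replicates of a group came from separate cultures, so p-values measure only the spread between these samples, which may be technical. RNA came from whole cultures, where fewer cells in S phase and less RNA per cell cannot be told apart.

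Array medians lay between 7.04 and 7.18 on the log2 scale, and the number of arrays in a group limits the precision. Hepatocyte transcripts were high: 9 measured hepatocyte markers had mean log2 values from 11.47 (APOA1) to 13.34 (ALB, serum albumin). Such levels do not by themselves identify the labelled line. Mean levels ran from 4.32 (EMCN) to 7.71 (CLDN5) over 7 endothelial markers and from 3.38 (LUM) to 7.77 (COL1A1) over 7 fibroblast markers. Over 6 leukocyte markers they ran from 4.33 (PTPRC) to 8.45 (CD68) and 12.29 (LYZ, lysozyme), so each of these lists had a gene above the array medians. DDIT4, a stress-induced inhibitor of the growth kinase mTOR, separated the arrays. It lay between 9.67 and 10.34 on 10 arrays and between 7.50 and 8.35 on the other 14, with none between. Arrays with DDIT4 above 9.0 occurred under both labels, 6 with DMSO and 4 with silymarin, and at every time point, 3 at 4 h, 5 at 8 h and 2 at 24 h. These were DMSO replicates 1 and 4 and silymarin replicate 1 at 4 h, DMSO replicates 1, 4 and 5 and silymarin replicates 1 and 3 at 8 h, and DMSO replicate 3 and silymarin replicate 1 at 24 h. Their part in the comparisons of labelled groups was not tested.

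RefSeq promoter windows (GRCh38.p14, 250 bases before to 50 after each gene's start) were held for 34 of the 37 genes. Of these 34, 19 (55.9%) contained E2F letters, searched as TTTCCCGC, TTTCGCGC, TTTGCCGC or TTTGGCGC on both strands with overlapping matches merged. The same letters occurred in 3.31% of all 35116 windows and in 5.49% of the 14122 measured genes with a window. The NF-Y letters CCAAT were in 19 of the 34 genes and in 42.3% of measured genes, and the GC box GGGCGG in 26 of 34 and in 65.9%. The matches describe the letters and say nothing of binding. Stretches of 80 bases upstream of the start follow for 6 genes that differed in how they varied, 5′ to 3′ on the gene's strand, with the E2F letters in capitals. The first 4 genes had lower levels on the arrays with high DDIT4 and the last 2 had about the same level on both kinds of array, as described further on.
UHRF1 (chr19:4909421-4909500, plus strand): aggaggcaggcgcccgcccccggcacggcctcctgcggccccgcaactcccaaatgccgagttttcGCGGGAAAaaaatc
MCM6 (chr2:135876521-135876600, minus strand): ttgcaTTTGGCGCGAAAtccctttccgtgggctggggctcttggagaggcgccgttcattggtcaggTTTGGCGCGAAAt
E2F2 (chr1:23531234-23531313, minus strand): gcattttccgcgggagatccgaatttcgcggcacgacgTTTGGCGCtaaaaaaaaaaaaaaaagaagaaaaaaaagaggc
PCNA (chr20:5126623-5126702, minus strand): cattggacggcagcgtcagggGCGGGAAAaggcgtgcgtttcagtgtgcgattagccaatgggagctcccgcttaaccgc
E2F1 (chr20:33686386-33686465, minus strand): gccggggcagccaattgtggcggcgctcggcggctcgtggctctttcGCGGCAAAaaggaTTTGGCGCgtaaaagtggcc
POLA2 (chr11:65261882-65261961, plus strand): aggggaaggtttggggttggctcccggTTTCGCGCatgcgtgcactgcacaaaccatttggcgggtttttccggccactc

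The replication genes varied together from array to array. Over the 24 arrays, the 666 pairs of these genes had a median Pearson correlation of 0.57, and 56.0% of pairs lay above 0.5, against a median of 0.01 and a share of 6.5% over all pairs of measured genes. These correlations are descriptions over arrays that share one normalization. The pairs had a median of 0.60 when each value was taken as a deviation from its group mean. Pairs of a listed gene with 1 of 29 G2/M and mitosis genes had medians about as high, 0.56 over the 24 arrays and 0.60 as deviations. By these values the shared variation was not particular to the replication genes. On the arrays with low and with high DDIT4 taken apart, listed pairs had medians of 0.50 and 0.52. Pairs with a mitosis gene had 0.31 and 0.38 there, and the difference was not tested. The spread within groups had a median SD of 0.158 on the log2 scale for these genes and 0.123 for all genes.

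The median over the 37 genes of the log2 value minus each gene's mean over all arrays, called the joint level here, ran from -0.32 to 0.20. DMSO replicate 4 at 8 h had the lowest joint level, and 20 of the 37 genes had their lowest value there. Silymarin replicate 3 at 4 h (0.20) and silymarin replicate 3 at 24 h (0.17) had the highest joint levels, and 21 genes had their highest value on one of them, 9 and 12 in that order. How many of all genes had their lowest or highest value on these arrays was not counted. On silymarin replicate 3 at 4 h, 35 of the 37 genes lay above their own median over the arrays, while on DMSO replicate 4 at 8 h and on silymarin replicate 1 at 4 h only 2 did. Most of the gene list therefore ran high on some arrays of a group and low on others.

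**Figure D1:**
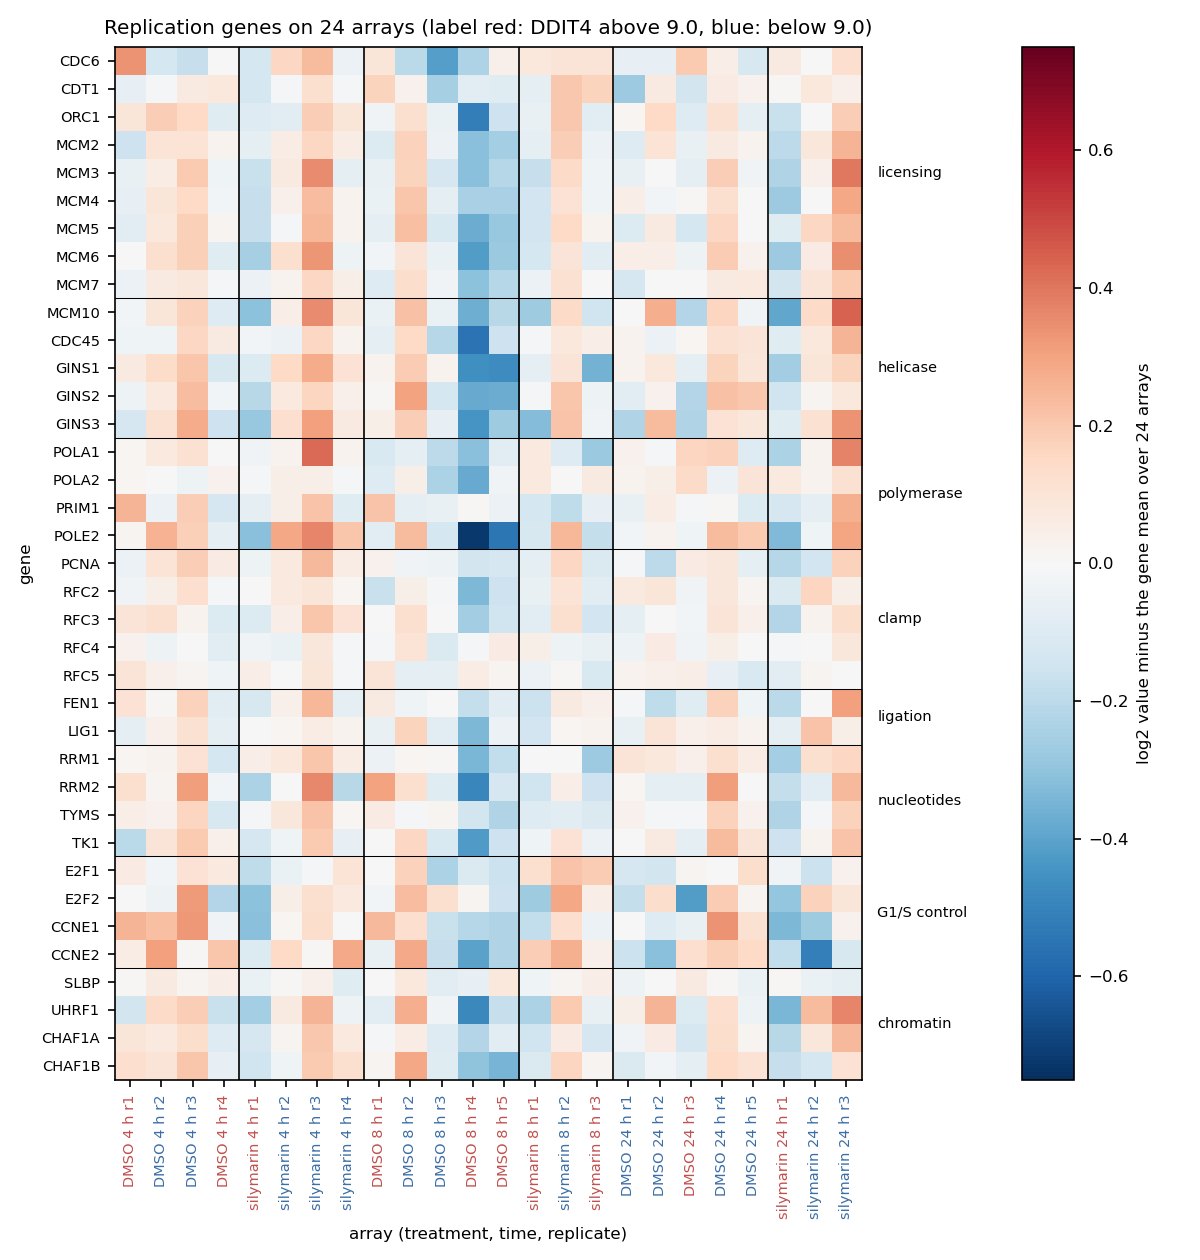
Heat map of the 37 genes (rows, by role) on the 24 arrays (columns, by treatment, time and replicate), coloured by the log2 value minus the gene's mean over all arrays, with array names in red where DDIT4 was above 9.0 and in blue where it was below. The column of DMSO replicate 4 at 8 h, with a joint level of -0.32, is blue over most rows, and silymarin replicate 3 at 4 h and at 24 h are the reddest.

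Among the licensing genes, the subunits of the ring varied together while the loaders CDC6 and CDT1 followed less closely over the 24 arrays. The 6 subunits of the MCM2 to MCM7 ring, which unwinds DNA at the fork, had pairwise Pearson correlations between 0.86 and 0.95 over the 24 arrays. MCM6 ran from 9.91 to 10.68 with a median of 10.34, a 1.70-fold range, MCM3 from 10.54 to 11.25 and MCM5 from 9.96 to 10.58. MCM2 ran from 10.40 to 10.97, MCM4 from 10.44 over a median of 10.71 to its highest on silymarin replicate 3 at 24 h, and MCM7 from 11.54 to 12.04. ORC1, the subunit of the origin recognition complex that is tied to the cell cycle, ran from 8.81 to 9.53, and its correlation with the median of the other 36 genes was 0.90. Over the 24 arrays CDC6 and CDT1 stood apart from the ring they load, at 0.24 and 0.43 with the other genes. CDC6 ran from 10.73 to 11.48 and was lowest on DMSO replicate 3 at 8 h and highest on DMSO replicate 1 at 4 h, which are not the arrays where the ring was lowest or highest. CDT1 ran from 8.93 to 9.40.

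Of the 5 helicase activators, MCM10 and GINS3 had the widest spread, with an SD of 0.22 each. MCM10, which helps the loaded helicase to start, had a median of 10.32 and ran from 9.94 on silymarin replicate 1 at 24 h to 10.77 on silymarin replicate 3 at 24 h, so its lowest and highest arrays carried the same label. GINS3 had a median of 9.06 and ran from 8.56 to 9.34. Its GINS partners ran together with it, GINS1 from 10.79 to 11.54 and GINS2 from 11.23 to 11.91, and so did CDC45 (9.64 to 10.45), which completes the active helicase. The correlations of these 5 genes with the median of the others lay between 0.84 and 0.90.

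POLE2, the second subunit of the leading-strand polymerase epsilon, had the widest spread of the 37 genes. Its SD over the 24 arrays was 0.28, higher than 96.6% of measured genes, and it ran from 8.34 on DMSO replicate 4 at 8 h over a median of 9.06 to 9.43 on silymarin replicate 3 at 4 h, a 2.13-fold range. The genes of polymerase alpha and primase, which lay down the primers, followed the others less closely. POLA1 ran from 8.41 to 9.15, POLA2 from 9.0 to 9.52 and PRIM1 from 9.64 to 10.10, with correlations of 0.70, 0.47 and 0.37 with the median of the other genes.

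At the clamp, PCNA ran from 10.57 to 11.03 and the loader subunits RFC2 from 10.40 to 10.90 and RFC3 from 10.71 to 11.18. The other loader subunits hardly varied. RFC4 ran only from 11.32 to 11.53 and RFC5 from 9.75 to 9.96, and their SDs of 0.053 and 0.063 were higher than those of 0.9% and 2.5% of measured genes. FEN1, which trims the flaps of lagging-strand fragments, ran from 10.69 to 11.20 and LIG1, which seals them, from 8.63 to 9.18. Among enzymes of nucleotide supply, the ribonucleotide reductase subunit RRM2 had a median of 10.56 and ran from 10.08 to 10.93, and its partner RRM1 from 10.28 to 10.83. Thymidylate synthase, TYMS, ran from 11.31 to 11.75 and thymidine kinase, TK1, from 10.12 to 10.78.

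The G1/S control genes did not form one block. The cyclin E genes ran from 8.75 to 9.42 (CCNE1) and from 8.19 to 9.01 (CCNE2), and CCNE2 had the second widest SD of the list, 0.23. CCNE2 was lowest on silymarin replicate 2 at 24 h, an array where 25 of the 37 genes lay above their own median. The activator E2F1 ran from 9.94 to 10.39 and E2F2 from 6.59 to 7.33, with correlations of 0.40 and 0.58 with the other genes. Among chromatin genes, UHRF1, which brings the maintenance DNA methyltransferase to new DNA, ran from 9.49 to 10.34 with a median of 9.95. The histone chaperone subunits CHAF1A (9.61 to 10.07) and CHAF1B (8.77 to 9.41) followed the list at 0.89 and 0.87. SLBP, which binds the stem-loop of histone mRNA, ran only from 10.75 to 10.92 and had the narrowest range of the list.

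The 6 genes with the widest spread are given array by array, in the order of the replicate numbers. POLE2 at 4 h was 9.08, 9.32, 9.24 and 8.99 with DMSO and 8.75, 9.35, 9.43 and 9.27 with silymarin. At 8 h it was 8.98, 9.30, 8.93, 8.34 and 8.52 with DMSO and 8.94, 9.31 and 8.88 with silymarin. At 24 h it was 9.04, 9.09, 9.03, 9.30 and 9.26 with DMSO and 8.73, 9.03 and 9.36 with silymarin. The 8 h DMSO arrays held both the lowest POLE2 values and values as high as at 4 h, and the labels overlapped at each time. MCM10 at 4 h was 10.31, 10.42, 10.50 and 10.23 with DMSO and 10.02, 10.38, 10.68 and 10.42 with silymarin. At 8 h it was 10.28, 10.55, 10.28, 9.96 and 10.12 with DMSO and 10.06, 10.47 and 10.18 with silymarin. At 24 h it was 10.33, 10.60, 10.11, 10.49 and 10.30 with DMSO and 9.94, 10.47 and 10.77 with silymarin. The silymarin arrays at 24 h held the lowest and the highest MCM10 value. GINS3 at 4 h was 8.88, 9.12, 9.28 and 8.85 with DMSO and 8.72, 9.13, 9.31 and 9.07 with silymarin. At 8 h it was 9.05, 9.19, 8.94, 8.56 and 8.74 with DMSO and 8.68, 9.22 and 8.98 with silymarin. At 24 h it was 8.78, 9.24, 8.78, 9.11 and 9.09 with DMSO and 8.91, 9.12 and 9.34 with silymarin. DMSO replicate 4 at 8 h was lowest for GINS3, and the labels overlapped at each time. UHRF1 at 4 h was 9.84, 10.12, 10.16 and 9.81 with DMSO and 9.72, 10.04, 10.23 and 9.94 with silymarin. At 8 h it was 9.89, 10.25, 9.95, 9.49 and 9.80 with DMSO and 9.74, 10.17 and 9.92 with silymarin. At 24 h it was 10.02, 10.23, 9.87, 10.10 and 9.94 with DMSO and 9.63, 10.21 and 10.34 with silymarin. Replicate 4 of DMSO at 8 h was lowest for UHRF1 too. RRM2 at 4 h was 10.69, 10.59, 10.88 and 10.55 with DMSO and 10.33, 10.57, 10.93 and 10.36 with silymarin. At 8 h it was 10.87, 10.69, 10.48, 10.08 and 10.44 with DMSO and 10.42, 10.62 and 10.41 with silymarin. At 24 h it was 10.58, 10.50, 10.50, 10.88 and 10.57 with DMSO and 10.39, 10.49 and 10.81 with silymarin. RRM2 overlapped between the labels at each time, and DMSO replicate 4 stood above the other 24 h DMSO arrays. CCNE2 at 4 h was 8.76, 9.01, 8.71 and 8.91 with DMSO and 8.60, 8.85, 8.71 and 8.99 with silymarin. CCNE2 at 8 h and 24 h stands with the tests of those times.

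Joint levels overlapped between all labelled groups. At 4 h the 4 DMSO arrays had joint levels of 0.01, 0.07, 0.16 and -0.03 and the 4 silymarin arrays -0.12, 0.04, 0.20 and 0.03, in the order of their replicate numbers. At 8 h the 5 DMSO arrays had -0.02, 0.13, -0.08, -0.32 and -0.16 and the 3 silymarin arrays -0.07, 0.11 and -0.05. At 24 h the 5 DMSO arrays had -0.02, 0.04, -0.03, 0.12 and 0.02 and the 3 silymarin arrays -0.17, 0.02 and 0.17. The spread inside a group was as wide as 0.45, in DMSO at 8 h, while the 6 group medians lay between -0.08 and 0.04.

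**Figure D2:**
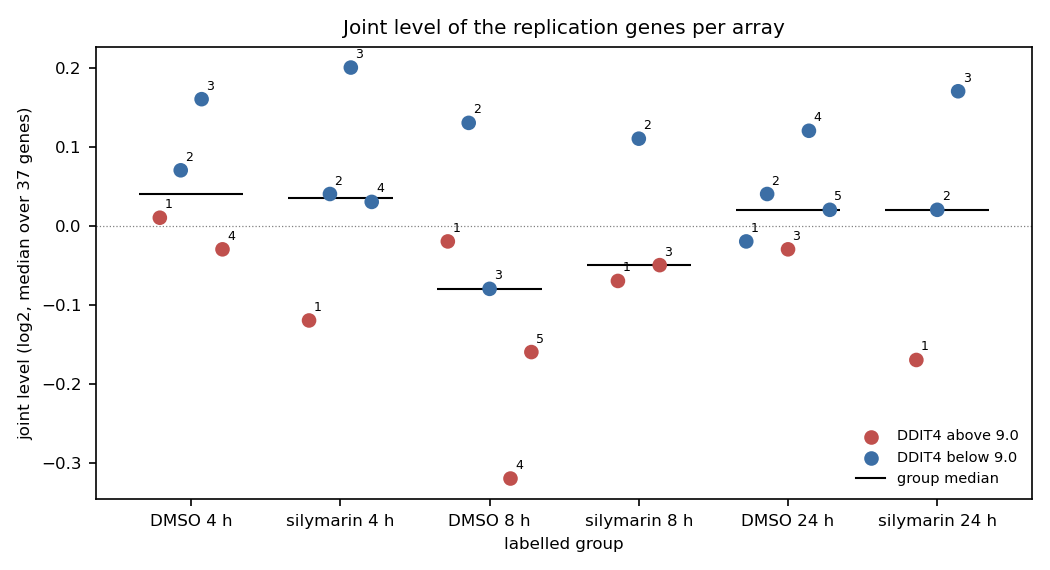
Joint level of the 37 genes (log2, vertical axis) on each array by labelled group, with replicate numbers beside the points, the group median as a line and the colour giving DDIT4 above (red) or below (blue) 9.0. In 5 of the 6 groups every red point lies below every blue one, and DMSO at 8 h is the exception, where replicate 3 (-0.08) is blue.

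The comparison at 4 h asked whether silymarin changed these genes soon after it was added. None of the 37 genes passed limma's test, at an adjusted p under 0.05 over all genes, and none had an unadjusted p under 0.05, where 0% and 2.48% of all genes did (1.05% higher and 1.43% lower). On the log2 scale 19 of the 37 had a difference above 0, as did 47.5% of all genes, and the median over the 37 was 0.0006, and just below 0 after re-centring, repeated quantile normalization or averaging probe sets. CCNE1 had the smallest p. It was 9.34, 9.31, 9.41 and 9.06 in the DMSO arrays and 8.77, 9.10, 9.22 and 9.09 in the silymarin arrays, so the groups overlapped. The difference was -0.23 (SE 0.12, 95% interval -0.49 to 0.02), with limma's adjusted p = 0.99993. E2F1 (-0.093, SE 0.081) and SLBP (-0.059, SE 0.051) followed. Without silymarin replicate 1, which had high DDIT4, CCNE1 differed by -0.14, and without silymarin replicate 3 the median over the 37 genes was -0.061.

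At 8 h, 29 of the 37 genes lay above 0, with a median difference of 0.063, while 42.0% of all genes did. limma called 0 of the 37 and 0% of all genes, and 2 of the 37 were higher at an unadjusted p under 0.05, against 1.56% of all genes. At that threshold 3.93% of all genes stood in either direction and 2.37% lower, with none of the 37 lower. The first was E2F1, at 10.18, 10.35, 9.94, 10.07 and 10.02 in DMSO and 10.30, 10.39 and 10.37 in silymarin. DMSO replicate 2 lay above silymarin replicate 1, so the groups overlapped. E2F1 differed by 0.24 (SE 0.083, 95% interval 0.068 to 0.41), with limma's adjusted p = 0.99140. The second was POLA2, at 9.28, 9.42, 9.14, 9.0 and 9.35 in DMSO and 9.45, 9.37 and 9.44 in silymarin, a difference of 0.18 (SE 0.071). CCNE2 was 8.65, 8.99, 8.53, 8.30 and 8.48 in DMSO and 8.89, 8.97 and 8.74 in silymarin, a difference of 0.27 (SE 0.14). All 3 are among the 9 genes whose correlation with the median of the other genes was under 0.5. Without DMSO replicate 2 the median over the 37 genes was 0.14, and without silymarin replicate 2 it was 0.0087.

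At 24 h, 18 of the 37 genes lay above 0, with a median difference of -0.010, and 56.0% of all genes did. limma called 0 of the 37 and 0% of all genes, and none of the 37 had an unadjusted p under 0.05, which 3.03% of all genes had (2.11% higher and 0.914% lower). Both cyclin E genes had their means lower in silymarin. CCNE1 was 9.08, 8.99, 9.03, 9.42 and 9.20 in DMSO and 8.75, 8.82 and 9.12 in silymarin, a difference of -0.25 (SE 0.13, 95% interval -0.51 to 0.012). CCNE2 was 8.54, 8.39, 8.83, 8.88 and 8.85 in DMSO and 8.52, 8.19 and 8.58 in silymarin, a difference of -0.27 (SE 0.14, 95% interval -0.55 to 0.013). Both had overlapping groups and limma's adjusted p = 0.99971. CDT1, the licensing factor, differed by 0.095 (SE 0.090). Without silymarin replicate 2 CCNE2 differed by -0.14, and without silymarin replicate 1 the median over the 37 genes was 0.070.

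No gene of the list had all silymarin arrays above or all below the DMSO arrays at any time point. Over all genes, silymarin lay wholly above DMSO for 0.629%, 0.947% and 1.18% of genes at 4 h, 8 h and 24 h, and wholly below for 1.55%, 1.99% and 0.772%. Averaged over the 3 time points, 28 of the 37 genes lay above 0 (47.3% of all genes) with a median of 0.021, and limma called 0 of the 37. CCNE1 had the smallest p, with an average difference of -0.16 (SE 0.072, 95% interval -0.31 to -0.0091, limma's adjusted p = 0.99986), and was the 1 gene of the list lower at an unadjusted p under 0.05, against 1.28% of all genes (1.55% higher, 2.83% in either direction). CDC6 (0.12, SE 0.065) and POLA2 (0.070, SE 0.040) lay on the other side of 0.

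**Figure D3:**
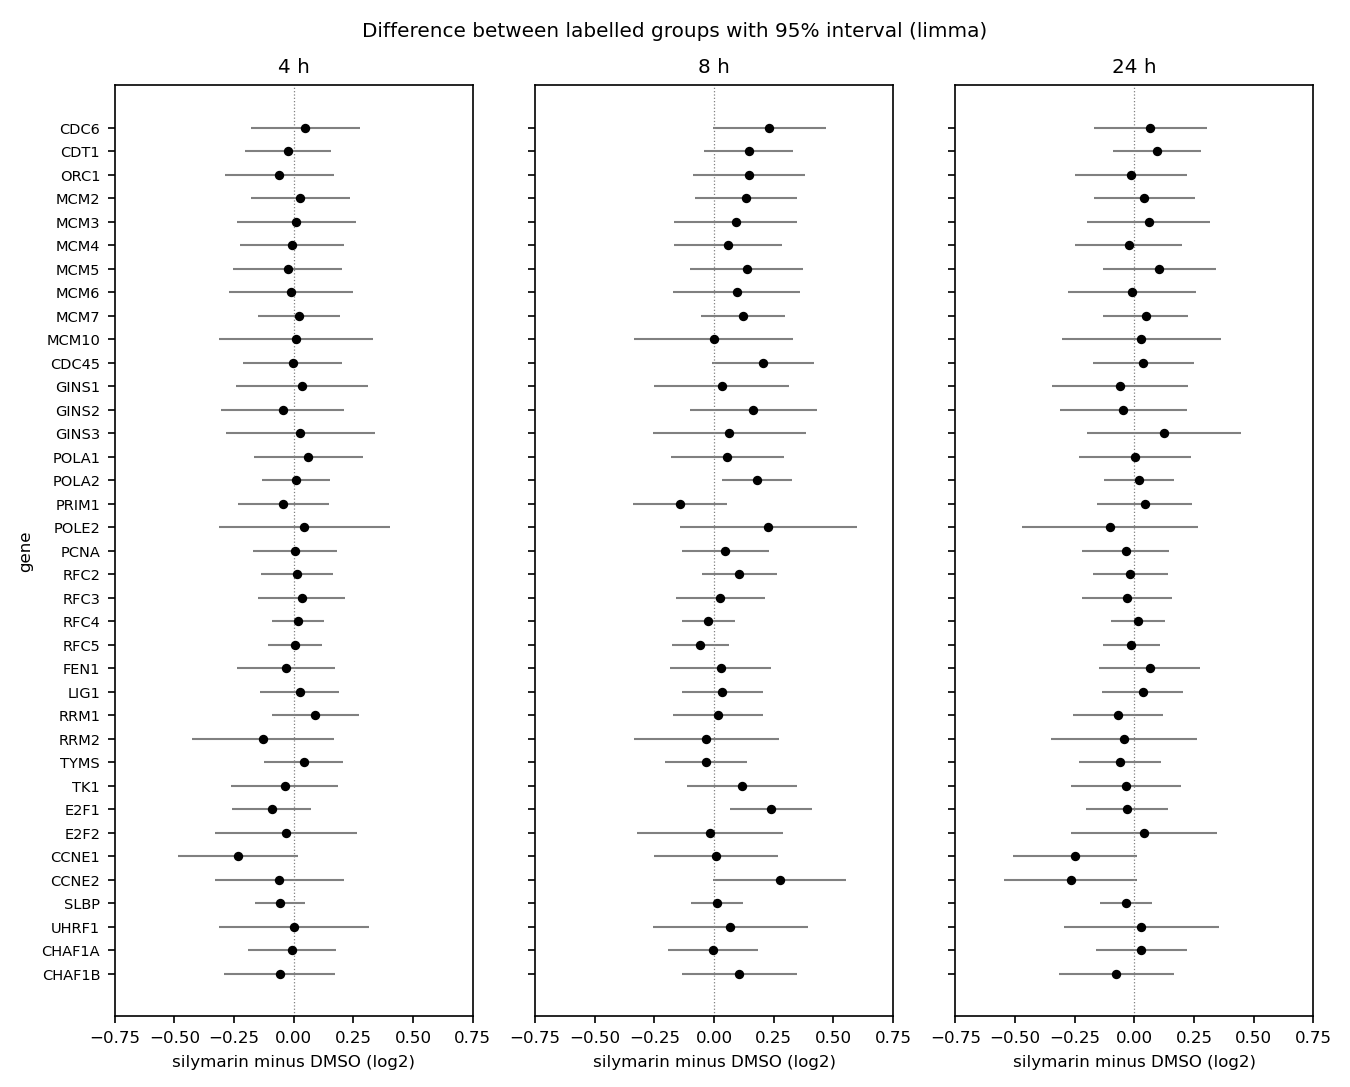
Silymarin minus DMSO (log2, horizontal axis) for each of the 37 genes at 4 h, 8 h and 24 h, as limma's estimate (point) with its 95% interval (line). E2F1 and POLA2 at 8 h are the intervals that leave out 0 before adjustment, and the cyclin E genes CCNE1 and CCNE2 lie farthest below 0 at 24 h (-0.25 and -0.27).

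The change of the silymarin effect between time points was tested as an interaction. From 8 h to 24 h, the silymarin difference of CCNE2 moved by -0.54 (SE 0.19, 95% interval -0.94 to -0.15), and E2F1 had -0.27 (SE 0.12). For both, limma gave an adjusted p = 0.95. They were the 2 genes of the 37 lower at an unadjusted p under 0.05, against 1.29% of all genes (2.79% higher, 4.08% in either direction), and 8 of the 37 lay above 0 (59.3% of all genes). The median over the list was -0.075, or 0.043 without silymarin replicate 1 at 24 h. From 4 h to 8 h, E2F1 had an estimate of 0.33 (SE 0.12, limma's adjusted p = 0.99982) and was the 1 gene of the list higher at an unadjusted p under 0.05, against 0.821% of all genes (1.55% lower, 2.37% in either direction), while 28 of the 37 had estimates above 0 (47.1% of all genes). CCNE2 had 0.33 (SE 0.19) and POLA2 0.17 (SE 0.098). From 4 h to 24 h, none of the 37 reached an unadjusted p under 0.05 (3.02% of all genes did, 2.32% higher and 0.695% lower) and 23 had estimates above 0 (54.9% of all genes), with RRM1 at -0.16 (SE 0.13) the first by p. limma called 0 of the 37 in each of these interactions.

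In DMSO alone, nearly every listed gene had a lower mean after 8 h than after 4 h, but none passed the test. Only RFC4 (0.025) and E2F2 (0.027) of the 37 genes lay above 0, the median difference was -0.13, and 53.5% of all genes lay above 0. The clamp loader subunit RFC2 was 10.71, 10.78, 10.86 and 10.73 at 4 h and 10.57, 10.78, 10.73, 10.40 and 10.58 at 8 h. The groups overlapped, and the difference was -0.15 (SE 0.070, limma's adjusted p = 0.739). POLA2 (-0.14, SE 0.065), CDC45 (-0.21, SE 0.094), CCNE1 (-0.24, SE 0.12) and POLE2 (-0.34, SE 0.16) made up the 5 genes lower at an unadjusted p under 0.05, against 2.11% of all genes (4.39% higher, 6.50% in either direction). limma called 0 of the 37 and 0% of all genes. DDIT4 was high on 2 of 4 arrays at 4 h and 3 of 5 at 8 h. Without DMSO replicate 4 at 8 h the median was -0.078, and the difference was -0.10 for RFC2, -0.083 for POLA2 and -0.11 for CDC45.

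At 24 h against 4 h in DMSO, 11 of the 37 genes lay above 0 (55.1% of all genes), with a median of -0.027. limma called 0 of the 37, and none reached an unadjusted p under 0.05 (1.70% of all genes did, 1.15% higher and 0.547% lower). PCNA differed by -0.10 (SE 0.081), CCNE2 by -0.15 (SE 0.12) and CCNE1 by -0.14 (SE 0.12), each with limma's adjusted p = 0.99992. Over all 6 groups, limma's F-test called 0 of the 37 genes and 0% of all genes. CCNE2 and POLA2 (limma's adjusted p = 0.67431 for both) were the 2 genes of the list at an unadjusted p under 0.05, which 7.20% of all genes had.

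By the DDIT4 level of the array, most replication genes were lower on the 10 arrays with high DDIT4 than on the other 14. The arrays were divided on a measured value and are not groups of the study, so the values are a description with no test. Of the 37 genes, 33 had the lower median with high DDIT4, against 54.7% of all genes, and 31 to 33 did under the other scalings tried. The median difference over the list was -0.16 on the log2 scale, and over all genes -0.010. The joint level ran from -0.32 to 0.01 with high DDIT4, with a median of -0.06, and from -0.08 to 0.20 with low DDIT4, with a median of 0.06. Only DMSO replicate 3 at 8 h (-0.08) and DMSO replicate 1 at 24 h (-0.02) had low DDIT4 with a joint level under 0. Of the 37 genes, 30 had their lowest value on an array with high DDIT4 and 34 their highest on one with low DDIT4. The same counts over all genes were not made, and 14 of the 24 arrays had low DDIT4.

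POLE2, MCM10, UHRF1, GINS3 and E2F2 had the largest differences. UHRF1 was the 1 gene whose values did not overlap, at 9.49 to 9.92 with high DDIT4 (median 9.80) and 9.94 to 10.34 with low DDIT4 (median 10.14), a difference of medians of -0.34. Over all genes, 0.361% were wholly lower with high DDIT4. The gap for UHRF1 is narrow, and its other probe set, with a mean of 6.76 and a correlation of 0.04 with the one used, overlapped (medians of 6.79 with high and 6.75 with low DDIT4). The mean of both probe sets left 0 genes without overlap.

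POLE2 ran from 8.34 to 9.08 with a median of 8.91 on arrays with high DDIT4, and from 8.93 to 9.43 with a median of 9.28 on the others. Its median was 1.30-fold higher with low DDIT4, and 11 of the 14 arrays with low DDIT4 lay above all 10 with high DDIT4. MCM10 ran from 9.94 to 10.31 (median 10.11) against 10.28 to 10.77 (median 10.47), a 1.28-fold difference of medians, with 12 of the 14 arrays above all 10. GINS3 ran from 8.56 to 9.05 (median 8.81) against 8.78 to 9.34 (median 9.13). E2F2 ran from 6.59 to 7.06 (median 6.82) against 6.83 to 7.33 (median 7.13). MCM6 (-0.21), GINS1 (-0.23) and GINS2 (-0.17) had 12 of 14 arrays above all 10, and RFC2 (-0.15) had 13. Counted from the other side, 7 of the 10 arrays with high DDIT4 lay below all 14 others for MCM6, 9 for GINS1, 5 for GINS2 and 9 for RFC2. The 6 ring subunits differed by -0.22 (MCM5) to -0.12 (MCM7).

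By role, 8 of 9 licensing genes, 5 of 5 helicase activators, 3 of 4 polymerase and primase genes and 4 of 5 clamp genes had the lower median with high DDIT4. The same held for both maturation genes, FEN1 and LIG1 (-0.10 each), for 4 of 4 genes of nucleotide supply, from RRM2 (-0.15) and TYMS (-0.13) to TK1 (-0.19), and for 3 of 4 G1/S control genes. The median difference was -0.23 for the helicase activators, -0.18 for licensing, -0.12 for the clamp and -0.041 for polymerase and primase, where POLE2 stood beside POLA1 (-0.071), PRIM1 (-0.011) and POLA2 (0.0005).

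**Figure D4:**
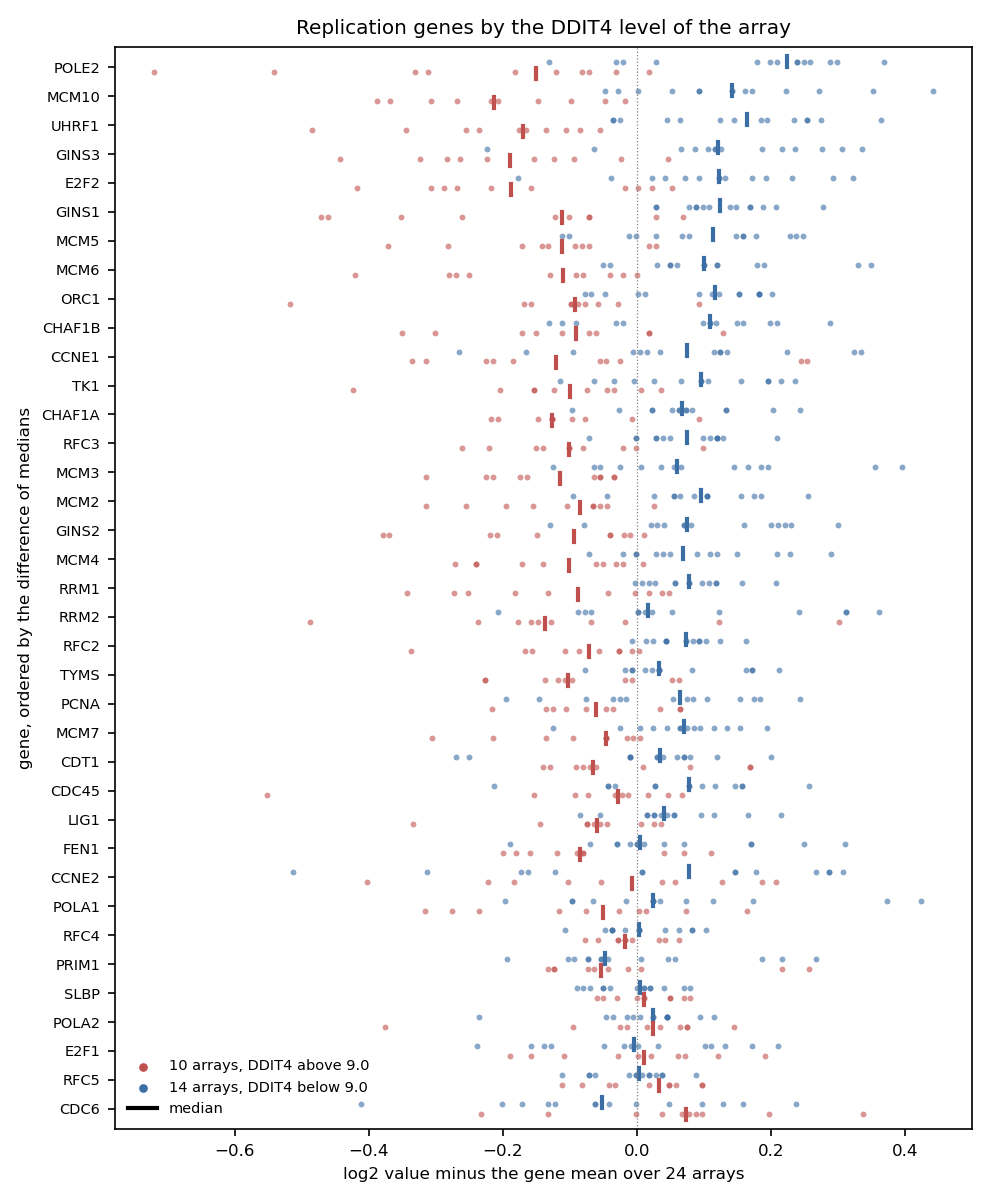
Each of the 37 genes (rows, ordered by the difference of medians) on the 10 arrays with DDIT4 above 9.0 (red) and the 14 below (blue), as the log2 value minus the gene's mean over all arrays, with the medians as bars. The red medians lie left of the blue ones for 33 genes, farthest for POLE2 (-0.38), and CDC6 at the bottom lies the other way (0.13).

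Several genes did not share the pattern. CDC6, which loads the ring, had the higher median with high DDIT4, 11.21 (10.91 to 11.48) against 11.09 (10.73 to 11.38), and it did so at 4 h (0.038), 8 h (0.28) and 24 h (0.17). The 5 genes with the smallest differences were SLBP (-0.0003), POLA2 (0.0005), PRIM1 (-0.011), RFC4 (-0.016) and E2F1 (0.020), and the sign turned to above 0 for SLBP after re-centring (0.032) and for SLBP (0.054) and RFC4 (0.020) after repeated quantile normalization. E2F1 ran from 9.99 to 10.37 (median 10.19) with high DDIT4 and from 9.94 to 10.39 (median 10.17) with low DDIT4, although its E2F2 relative differed by -0.31. Within time points, E2F1 differed by 0.066, -0.17 and 0.063 at 4 h, 8 h and 24 h. Its promoter stretch above holds E2F letters, as does that of POLA2. Genes with and without E2F letters in the window had medians of -0.17 (19 genes) and -0.15 (15 genes).

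Within each time point most of the list also lay lower with high DDIT4. At 4 h, 33 of the 37 genes had the lower median on the 3 arrays with high DDIT4 than on the 5 others (47.2% of all genes did), and 12 were wholly lower (4.28% of all genes). At 8 h the numbers were 33 (56.0%) and 6 (5.88%), with 5 arrays against 3. At 24 h they were 32 (61.4%) and 13 (8.32%), with 2 arrays against 6. Across the time points, 29 of the 37 genes had the lower median at all 3, and the share of all genes that did was not counted. Median joint levels with high and with low DDIT4 were -0.03 and 0.07 at 4 h, -0.07 and 0.11 at 8 h, and -0.10 and 0.03 at 24 h. Within labels, the median joint level was -0.03 on the 6 DMSO arrays with high DDIT4 and 0.06 on the 8 with low DDIT4. It was -0.10 on the 4 silymarin arrays with high DDIT4 and 0.08 on the 6 with low DDIT4.

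The genes also varied together inside each kind of array. The median Pearson correlation over their 666 pairs was 0.50 on the 14 arrays with low DDIT4 and 0.52 on the 10 with high DDIT4, against 0.02 and 0.00 over all gene pairs. Their pairs with the mitosis genes had medians of 0.31 and 0.38 on these arrays. MCM3 and MCM6 had correlations with the median of the other genes of 0.95 and 0.86 on the low arrays and 0.94 and 0.97 on the high ones. Other genes followed less closely. On the low arrays all 37 had such correlations above 0, down to 0.27 for CCNE2. On the high arrays 35 did, and RFC4 (-0.17) and E2F2 (-0.07) did not. CDC6, at 0.24 over all arrays, had 0.55 and 0.77 within the low and the high arrays, so it followed the list within each kind although its medians lay the other way round.

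Genes outside the list moved with it to different degrees. Of 35 other replication genes, such as the remaining origin recognition subunits and polymerase delta, 28 had the lower median with high DDIT4, with a median difference of -0.079. Of 28 cyclins, kinases, inhibitors and E2F or retinoblastoma family genes of the G1/S step, 21 did, with a median of -0.078. Among genes picked after their values were seen, the repressor E2F8 differed by -0.54 and FBXO5, the inhibitor of the anaphase-promoting complex, by -0.34, while MYC was 0.61 higher. Of 29 G2/M and mitosis genes, 28 had the lower median, with a median of -0.27; the difference between this median and that of the replication list was not tested. In a list of 15 stress response genes that holds DDIT4 itself, all 15 had the higher median with high DDIT4 and 12 were wholly higher, against 0.607% of all genes.

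In the tests between labelled groups, limma called 0 of the 35 other replication genes and 0 of the 28 G1/S regulators in every comparison. At 8 h, 2 of the 35 were higher in silymarin at an unadjusted p under 0.05 (1.56% of all genes), among them the polymerase delta subunit POLD2 (0.21, SE 0.079, limma's adjusted p = 0.99140). In DMSO at 8 h against 4 h, 2 of the 35 were lower by that threshold (2.11% of all genes), and 1 was lower for the change of the silymarin effect from 8 h to 24 h (1.29% of all genes). TFDP2, a partner of E2F proteins, was the 1 gene of the 28 lower in silymarin by that threshold (1.28% of all genes) over the 3 time points (-0.15, SE 0.042, limma's adjusted p = 0.99986). It was also the 1 gene of the 28 lower at 4 h alone (-0.18, SE 0.071), against 1.43% of all genes. At 8 h and at 24 h 0 of the 28 were.

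The joint level of the mitosis genes, formed in the same way, ran from -0.35 to 0.28 over the arrays. Its Pearson correlation with the joint level of the replication genes was 0.77 over the 24 arrays, as a description with no test. This correlation was 0.50 on the 14 arrays with low DDIT4 and 0.58 on the 10 with high DDIT4. The lists parted on some arrays. Silymarin replicate 3 at 8 h had the lowest mitosis level, -0.35, with a replication level of -0.05. DMSO replicate 2 at 8 h had 0.01 for mitosis and 0.13 for replication, and silymarin replicate 2 at 8 h had -0.06 and 0.11. DMSO replicate 1 at 24 h had 0.17 for mitosis and -0.02 for replication. The mean over 9 hepatocyte markers lay between 12.30 and 12.50 with high DDIT4 and between 12.36 and 12.47 with low DDIT4. For 7 endothelial markers the ranges were 5.71 to 6.08 and 5.83 to 6.15, for 7 fibroblast markers 5.86 to 6.06 and 5.89 to 6.17, and for 6 leukocyte markers 7.18 to 7.38 and 7.23 to 7.41. The ranges overlapped for every list, and no marker separated the arrays; the part of these cell types in the pattern was not tested.

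**Figure D5:**
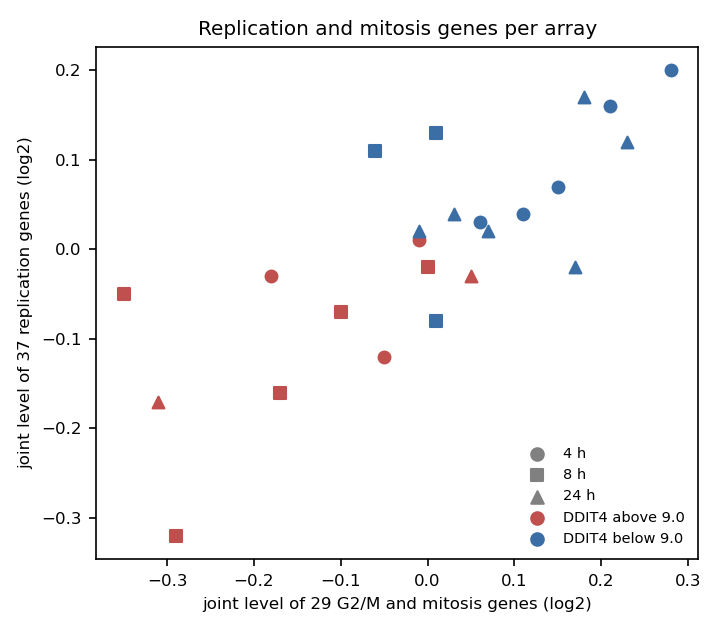
Joint level of the 37 replication genes (log2, vertical axis) against that of 29 G2/M and mitosis genes (log2, horizontal axis), with 1 point per array, shaped by time point and coloured by DDIT4 above (red) or below (blue) 9.0. Most red points lie lower and farther left than the blue ones, and silymarin replicate 3 at 8 h (-0.35, -0.05) is the red square farthest left.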

How the data were processed

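RNA of each of the 24 samples was read on its own Affymetrix Gene ST array. The values deposited by the authors are log2 signals per probe set; the submitters' processing notes name RMA (which corrects background, normalizes quantiles and sums up probes) and oligo. Quantile normalization gives arrays like distributions, so a change shared by most genes would not be visible. No source used here gives a genome build for the annotation. Of 28869 probe sets, 19302 had 1 gene symbol in the platform annotation, 1729 several and 7838 were not listed, and the probe set with the highest mean gave 18274 genes. UHRF1 was the 1 listed gene with several probe sets.

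A limma 3.58.1 model (R 4.3.3, lmFit and eBayes) of the 6 group means took in all arrays, with Benjamini-Hochberg adjustment over all genes, two-sided tests and a threshold of 0.05. It was tested on simulated data. Alternatives were re-centring, repeated quantile normalization, averaging the probe sets of each gene, leaving out dim genes (13705 left), trend and robust settings, array weights, only the groups compared, a replicate block and leaving out each array. Values within time points for the DDIT4 division were added after seeing the data. DDIT4 thresholds of 8.5 and 9.5 were also tried.

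The genes, the other lists and the DDIT4 threshold were chosen with earlier results of these data known. By a rule set for naming, all listed genes are described, with statistics for the 3 genes of smallest p per comparison, values per array for the 6 of widest spread, and, for the DDIT4 division, the 5 largest and 5 smallest differences. Plots used matplotlib 3.10.9 (Python 3.11.15).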

Additional observations from a re-analysis of the deposited data

Results flagged for a closer look

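In groups of 4 or 5 arrays, an array was marked where its gap to the nearest other array exceeded Dixon's 95% critical value for the group's range. Of 48 sets of values examined this way, 1 was marked, where chance marks about 1 in 20. DDIT4 was not examined, since the arrays were divided on it. RRM2, a subunit of ribonucleotide reductase, was 10.88 in DMSO replicate 4 at 24 h, against 10.50 to 10.58 in the other 4. The joint level of the replication genes was not marked in any group of 4 or 5 arrays.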

How the results depend on the processing

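The count of listed genes called by limma stayed at 0 in every comparison and under every alternative. No named gene's difference between labelled groups changed sign under any alternative. These genes were picked for the smallest p, which favours differences that are large against their SE. Trend and robust settings, leaving out dim genes, only the groups compared or leaving out an array of another group cannot change a difference. The stable signs are therefore no separate check. At 24 h, repeated quantile normalization called 1 gene among all genes in place of 0, and leaving out 1 array gave 0 to 1 (1 without silymarin replicate 1 or 2 at 4 h or DMSO replicate 3 at 8 h). The genes without overlap by DDIT4 numbered 1 (UHRF1), 2 after re-centring (RFC2 joined it) and 0 with probe sets averaged per gene. Leaving out 1 array gave 1 to 2, with GINS1 joining without DMSO replicate 1 at 4 h, and RFC2 without silymarin replicate 1 at 4 h or DMSO replicate 3 at 8 h. Within 4 h, 8 h and 24 h there were 12, 6 and 13, from fewer arrays. The difference of median joint levels by DDIT4 was -0.12, and between -0.14 and -0.094 without 1 array. Within 8 h it was -0.20 when gene means were taken over the 8 h arrays alone. DDIT4 thresholds of 8.5 and 9.5 could only divide the arrays in the same way, since no array lay between 8.35 and 9.67. Of 10 same-numbered DMSO and silymarin pairs, 4 had deviations from the group means correlated above 0.1 (range -0.14 to 0.43). Differently numbered pairs were not examined beside them, so these values cannot tell whether the replicate numbers pair the arrays. With the replicate block 0 of the 37 genes were called, and the median over the list was 0.030 at 8 h and -0.034 at 24 h. The median over the list, near 0 in most comparisons of labelled groups, did change sign when single arrays were left out. The median SE of the listed genes was 0.106 at 4 h and 0.109 at 8 h and 24 h, and the number of arrays limits what could be detected.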
